A study of Mus musculus with 21 samples.

Results

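The potassium channel genes of mouse neural stem and progenitor cells are described here as a family, across 7 groups of sorted cells. Every gene symbol that starts with Kcn was taken, other than Kcne2 and Kcnj8, and a gene was kept when it reached at least 1 FPKM in at least 3 of the 21 libraries. FPKM is the number of fragments of a transcript scaled to its length and to the mapped total of the library, so that levels of different genes can be compared per length. The name matched 96 of the 24322 symbols measured, and 68 of these were kept. The 28 that were not kept included 19 that never reached 1 FPKM. Just outside the limit were Kcna5 and Kcnk7, which reached 1 FPKM in 2 libraries with highest values of 1.45 and 4.26 FPKM. Just inside it, with 3 libraries each, were Kcna4, Kcnh1, Kcnj13, Kcnj2 and Kcnn4, with highest values of 2.61, 2.80, 68.4, 1.95 and 1.38 FPKM.

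Potassium channels let potassium leave or enter the cell and so set the resting membrane potential, end action potentials and time repetitive firing. Voltage-gated channels of the Kcna to Kcnd, Kcnh and Kcnq families open when the membrane depolarizes, calcium- and sodium-activated channels open when these ions rise inside the cell, and the inward rectifiers (Kcnj) and tandem-pore channels (Kcnk) carry current near rest. Kcnab, Kcne, Kcnip and Kcnmb genes encode auxiliary subunits that change the gating or the surface level of the pore-forming proteins. In the brain, immature neurons and glia hold different sets of these channels, and glia with astrocyte properties are known for inward rectifier and tandem-pore currents that clear potassium from around active neurons.

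All mice were C57BL/6 animals that carried a Nestin-EGFP reporter, in which the regulatory sequence of the intermediate filament gene Nestin drives green fluorescent protein, and EGFP-positive cells were taken by flow cytometry. VPA_Run_12w libraries came from the hippocampal dentate gyrus of animals 12 weeks old that had been exposed to valproic acid (VPA) before birth and had run voluntarily. VPA_12w libraries came from exposed animals of 12 weeks without the running label, and Control_12w libraries from animals of that age whose mothers had been given methylcellulose, the carrier. VPA_P5 and Control_P5 libraries came from the dentate gyrus at postnatal day 5, and VPA_E15 and Control_E15 libraries from the forebrain at embryonic day 15. VPA, an antiepileptic drug that also inhibits histone deacetylases, was given to the mothers by mouth at 300 mg/kg per day on embryonic days 12, 13 and 14. Each group had 3 libraries (n = 3 for every mean ± SD), no control group ran, and E15 differs from P5 in tissue as well as in age. The labels do not say which animals or litters a library holds, so p-values measure the spread between samples that may be technical.

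Of the neural stem cell list, Nes was at 7.86 FPKM or more and Sox2 at 24.5 FPKM or more in every library. The list was uneven, as Gfap had at most 0.451 FPKM at E15 and Prom1 was listed at 0 in VPA_12w replicate 3. Transcripts of other cells were abundant. Newborn neuron markers summed to 5101 to 6174 FPKM in Control_E15, against 540 to 648 FPKM for neural stem cell markers, and were the higher sum in each other group too. In a mixed sort fewer cells of a type and less RNA per cell cannot be told apart. VPA_E15 replicate 3 stood apart with 9662 FPKM of the choroid plexus gene Ttr, against 8.75 to 131 FPKM in the 5 other E15 libraries. Some results that rest on this library, but not all, are given with and without it. At 12 weeks each library listed 3 to 25 of the 68 genes at exactly 0, most in VPA_Run_12w replicate 3, against 0 at P5 and 0 to 3 at E15. The median SD of a potassium channel gene between replicates was 0.64 in VPA_Run_12w, 0.57 in VPA_12w and 0.42 in Control_12w on the log2(FPKM + 1) scale, whereas it was 0.11 to 0.15 at the younger ages. Read depth was not available for any library, so no counting interval is given, and a listed 0 is reported as such.

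The kept genes covered 14 of 17 pore-forming genes of the Kcna, Kcnb, Kcnc and Kcnd families, 3 of 10 electrically silent subunits (Kcnf, Kcng, Kcns and Kcnv), 7 of 8 Kcnh, 4 of 5 Kcnq, 10 of 14 Kcnj and 7 of 14 Kcnk genes. All 8 genes of the Kcnma, Kcnn, Kcnt and Kcnu families were kept, which are calcium- or sodium-activated channels apart from the pH-gated Kcnu1, with 13 of 16 auxiliary genes and 2 of 4 antisense or noncoding transcripts. Their summed level per library was 363 to 371 FPKM in Control_E15, 515 to 541 FPKM in Control_P5 and 520 to 616 FPKM in Control_12w. In the exposed groups it was 389 to 451 FPKM at E15, 547 to 618 FPKM at P5 and 602 to 919 FPKM at 12 weeks, and in VPA_Run_12w it was 510 to 596 FPKM. Between 21 and 27 of the 68 genes averaged at least 5 FPKM in any one group, and the rest were low.

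**Figure D1:**
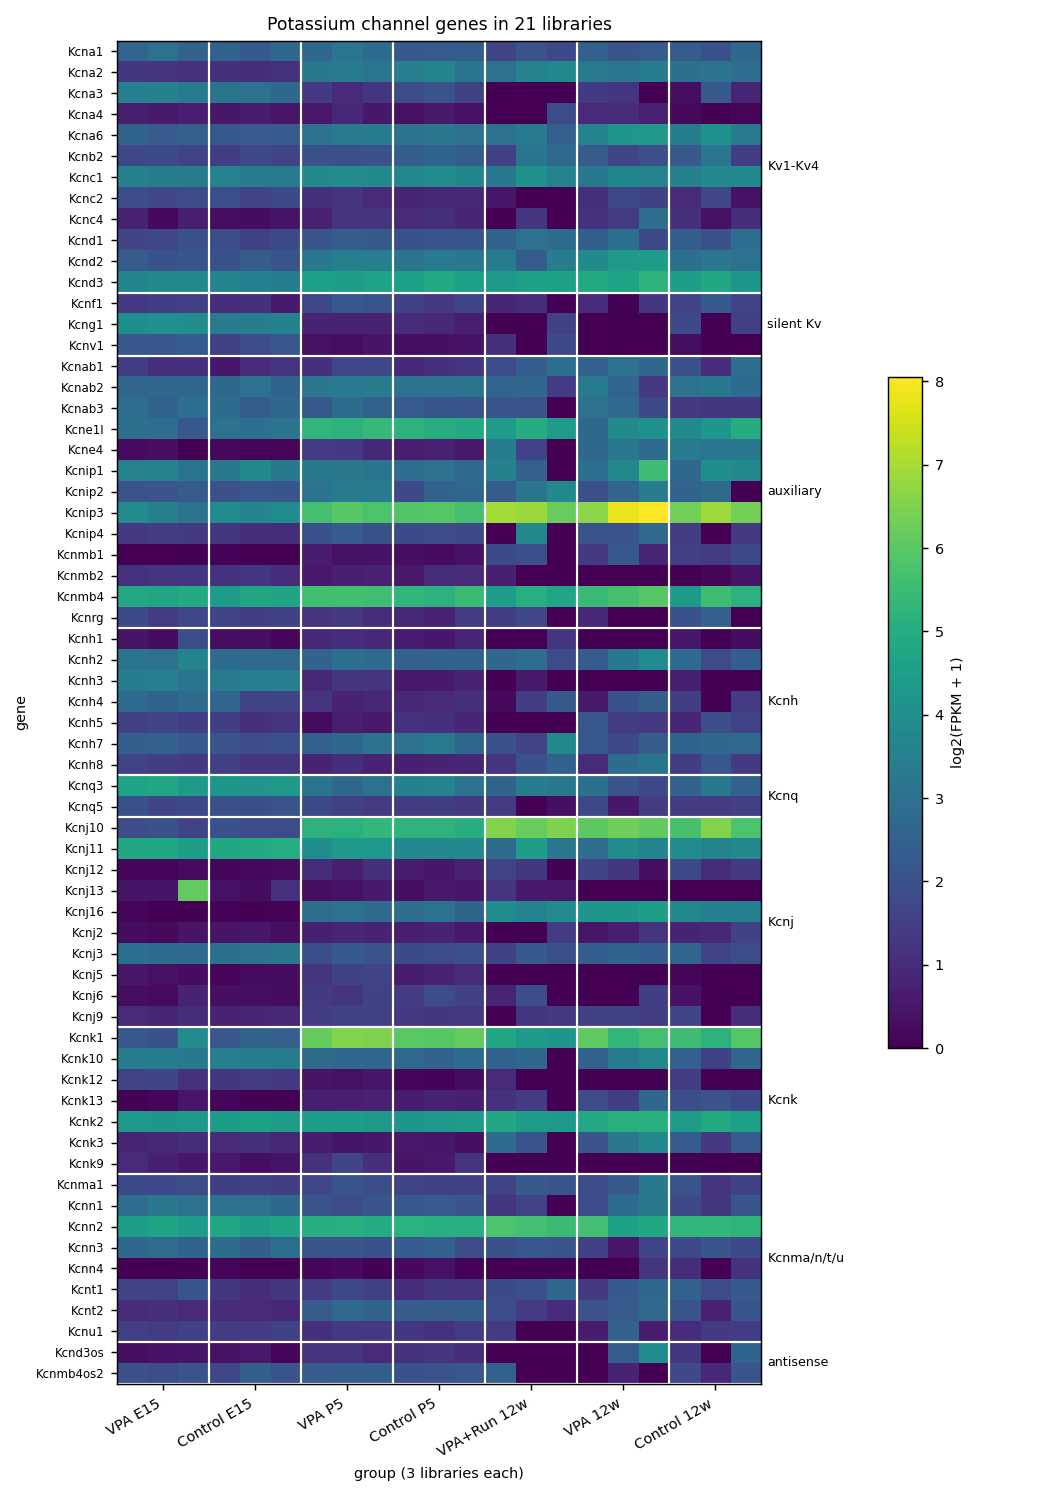
Levels of the potassium channel genes described here, as log2(FPKM + 1), in 21 libraries; columns are the 3 libraries of each group from replicate 1 to 3, and genes are stacked by family. The dentate gyrus columns are brighter for Kcnk1, Kcnj10, Kcnj16 and Kcnip3 and darker for Kcnj11, Kcnh3 and Kcng1 than the E15 columns, and dark cells for low genes are frequent in the 12-week columns.

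The abundant genes differed between ages. In Control_E15 high means included those of Kcnj11 at 29.3 FPKM and Kcnmb4 at 24.6 FPKM. In Control_P5 the highest were Kcnk1 at 64.8 FPKM, Kcnip3 at 56.2 FPKM and Kcnmb4 at 39.6 FPKM, and in Control_12w Kcnip3 at 92.6 FPKM, Kcnj10 at 65.9 FPKM and Kcnk1 at 47.0 FPKM. Kcnj11 is the pore of ATP-sensitive potassium channels, and Kcnmb4 is the neuronal beta subunit of large-conductance calcium-activated channels. Kcnk1 encodes a tandem-pore channel, Kcnip3 a calcium sensor that binds Kcnd channels and also acts as a transcriptional repressor, and Kcnj10 the main inward rectifier of astrocytes.

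Between E15 forebrain and P5 dentate gyrus, 24 of 55 tested potassium channel genes rose and 19 fell in control libraries by limma with Benjamini-Hochberg adjustment over all genes, at 0.05. Over all 13189 genes tested 39.9% rose and 21% fell, so the share that changed, 78.2%, stood beside 60.9% of all genes, and falls made up more of it. The median log2 fold change was 0.12 for the family and 0.12 for all genes. Median-of-ratios scaling lowers the median of all genes to -0.04 and gives 21 rises and 23 falls in the family, with 3980 rises and 4347 falls over all genes (5265 and 2768 without that scaling), so the balance of rises and falls depends on the scaling while 40 of the 43 calls remained under it. Of the 55 genes, 9 passed the filter through 1 age only and could hardly do other than differ (Kcnc2, Kcnd3os, Kcnh3, Kcnh8, Kcnj16, Kcnj6, Kcnj9, Kcnk12 and Kcnv1). Without any single library 28 of the 43 calls remained. The number of falls was 11 without Control_E15 replicate 1 and 11 without Control_E15 replicate 3, with 50 members tested each time. Falls over all genes were then 21.3% and 16.5%.

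The tandem-pore and inward rectifier genes held the largest rises. Kcnk1 (chromosome 8, 125995170 to 126030685, plus strand, mm10) had 3.53, 4.8 and 4.52 FPKM in the 3 Control_E15 libraries, 62.7, 61.4 and 70.4 FPKM in Control_P5 and 46.1, 35.2 and 59.8 FPKM in Control_12w. Every control dentate gyrus library was far above every control forebrain library, and the rise to P5 was 3.64 ± 0.11 on the log2 scale (SE, adjusted p = 6.07e-07). Kcnj10 (chromosome 1, 172341210 to 172374085, plus strand) had 3.07, 2.60 and 2.66 FPKM in Control_E15, 36.8, 36.7 and 31.7 FPKM in Control_P5 and 51.9, 91.3 and 54.3 FPKM in Control_12w. The 3 ages did not overlap, and the rise to P5 was 3.25 ± 0.09 (SE, adjusted p = 4.86e-07). Kcnj16, which forms heteromeric channels with the Kcnj10 protein, had 0.0596, 0.0233 and 0.0634 FPKM in Control_E15, 6.35, 7.19 and 5.08 FPKM in Control_P5 and 12.7, 10.7 and 10.1 FPKM in Control_12w. It too was ordered by age without overlap (2.77 ± 0.12 to P5, adjusted p = 2.73e-06), though it passed the filter through P5 alone. Kcnj6 and Kcnj9, subunits of G-protein-gated channels, also rose to P5 (1.33 and 0.48).

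Other members of the same families went down. Kcnj11 had 27.5, 29.1 and 31.3 FPKM in Control_E15, 13.6, 13.4 and 12.8 FPKM in Control_P5 and 14.2, 11.4 and 13.0 FPKM in Control_12w, and fell by 1.09 on the log2 scale to P5 (SE 0.07, adjusted p = 1.13e-05). Abcc8, the sulfonylurea receptor subunit that assembles with Kcnj11, was chosen after its values were seen and averaged 31.1 FPKM in Control_E15, 14.8 FPKM in Control_P5 and 9.31 FPKM in Control_12w, with a log2 fold change of -1.01 to P5 (adjusted p = 0.000444). Kcnj3, a G-protein-gated channel subunit, averaged 7.43 ± 0.732, 2.68 ± 0.226 and 3.25 ± 1.64 FPKM at the 3 ages and fell by 1.2 to P5. Among tandem-pore genes Kcnk12 fell by 1.19 and Kcnk10 by 0.72. Kcnk2, a mechanically and thermally gated channel that was among the higher members at every age, had 21.4 ± 1.86, 19.0 ± 1.32 and 24.0 ± 4.07 FPKM and did not pass the test (adjusted p = 0.13). Thus 4 Kcnj genes rose and 2 fell of 6 tested, and 1 Kcnk gene rose and 2 fell of 4.

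**Figure D2:**
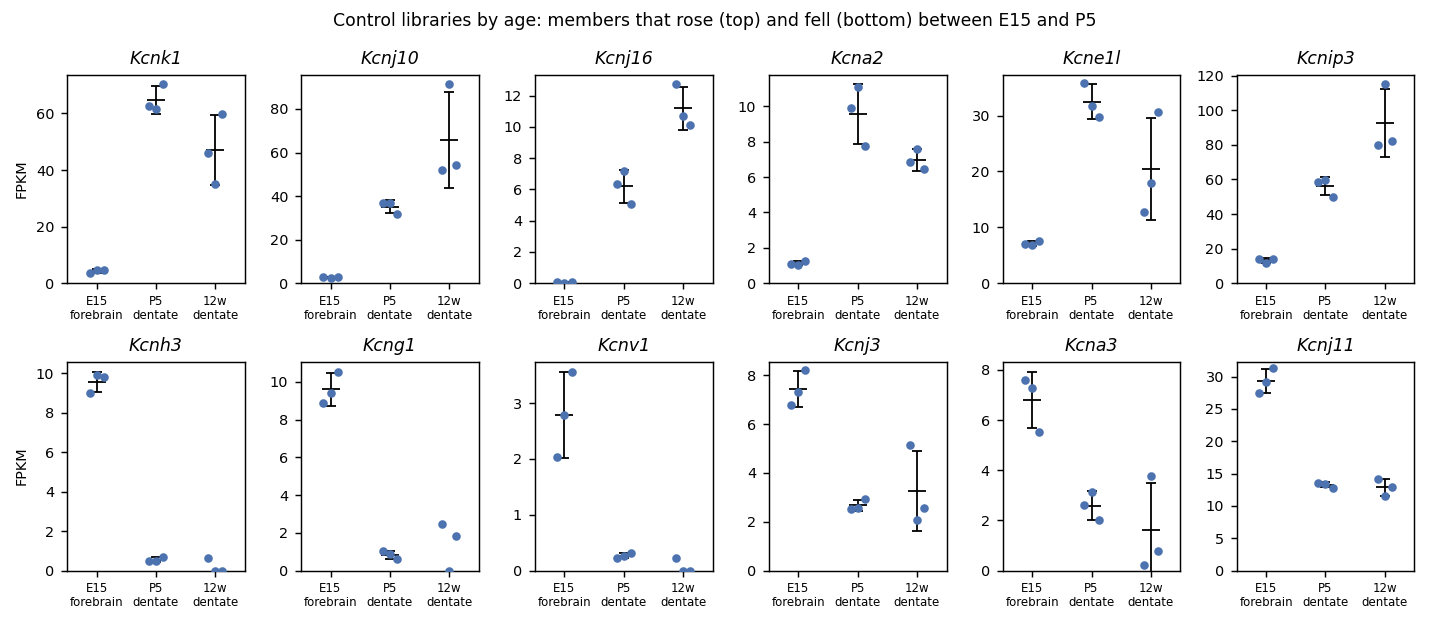
FPKM in control libraries at E15 (forebrain), P5 and 12 weeks (dentate gyrus) for 6 members that rose between E15 and P5 (top) and 6 that fell (bottom); points are libraries and black marks are mean ± SD, left out where a library was listed at 0. Kcnj10 and Kcnip3 are higher again at 12 weeks, Kcnk1 has its highest values at P5, and Kcnh3 is near 0 in both dentate gyrus groups.

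Most of the pore-forming genes of the classical voltage-gated families rose. Of 12 tested 9 rose and 2 fell, Kcna3 and Kcnc2. Kcnd2 and Kcnd3, the pores of the fast A-type current of neuronal dendrites, averaged 3.52 ± 0.603 and 10.3 ± 0.856 FPKM in Control_E15, 8.25 ± 0.631 and 24.3 ± 3.46 FPKM in Control_P5 and 7.36 ± 0.641 and 22.1 ± 4.56 FPKM in Control_12w, with rises to P5 of 1.04 and 1.16. Kcnd3 overlaps its antisense transcript Kcnd3os only from the Kcnd3 start at 105452330 to the Kcnd3os end at 105452955. Reads from that stretch may be shared, as no strand was stated for the libraries. Kcnc1, which allows fast spiking, rose by 0.35 and averaged 12.9 FPKM in Control_P5. Kcnb2, a delayed rectifier of the soma, rose by 0.83. Kcnd1, the third A-type pore, averaged 2.44 ± 0.409, 3.30 ± 0.214 and 4.61 ± 1.74 FPKM at E15, P5 and 12 weeks and rose by 0.33 to P5. Kcna1 did not pass (adjusted p = 0.209), with 4.74 ± 0.836, 4.01 ± 0.18 and 4.24 ± 1.22 FPKM at the 3 ages.

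Kcna2 and Kcna3, which encode related delayed rectifiers of axons and of immune and progenitor cells, lie 63076 bases apart on the plus strand of chromosome 3 and changed in opposite directions. Kcna2 (107101146 to 107115005) had 1.11, 1.01 and 1.25 FPKM in Control_E15, 9.88, 11.1 and 7.74 FPKM in Control_P5 and 6.86, 7.61 and 6.43 FPKM in Control_12w. Its rise to P5 was 2.30 ± 0.13 (SE, adjusted p = 8.2e-06), without overlap. Kcna3 (107036169 to 107038070) had 7.59, 7.28 and 5.53 FPKM in Control_E15, 2.62, 3.14 and 2.0 FPKM in Control_P5 and 0.231, 3.76 and 0.796 FPKM in Control_12w. The P5 libraries were all below the E15 libraries (-1.12 ± 0.16, adjusted p = 0.000636), and the 12-week libraries spread on either side of those at P5. In the neighbouring pair Kcna1 and Kcna6, 61945 bases apart on chromosome 6, Kcna6 rose by 0.81 and Kcna1 did not pass the test (-0.19).

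RefSeq promoters (GRCm38.p6, 250 bases before to 50 after a start site) were at hand for 50 of the 68 genes. They are shown for the neighbours Kcna3 and Kcna2, which moved apart with age, and for Kcnj10 and Kcnk1, which rose most. They run 5′ to 3′ on the gene's strand, and capitals mark CG dinucleotides.
Kcna3 chr3:107035912-107036211 (+): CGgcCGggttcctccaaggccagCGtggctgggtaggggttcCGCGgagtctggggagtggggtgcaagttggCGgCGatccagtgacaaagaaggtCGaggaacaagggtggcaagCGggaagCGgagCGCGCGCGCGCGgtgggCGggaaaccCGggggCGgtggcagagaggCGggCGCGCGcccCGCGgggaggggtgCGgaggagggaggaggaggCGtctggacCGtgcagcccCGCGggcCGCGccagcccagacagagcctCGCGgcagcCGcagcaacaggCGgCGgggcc
Kcna2 chr3:107101317-107101616 (+): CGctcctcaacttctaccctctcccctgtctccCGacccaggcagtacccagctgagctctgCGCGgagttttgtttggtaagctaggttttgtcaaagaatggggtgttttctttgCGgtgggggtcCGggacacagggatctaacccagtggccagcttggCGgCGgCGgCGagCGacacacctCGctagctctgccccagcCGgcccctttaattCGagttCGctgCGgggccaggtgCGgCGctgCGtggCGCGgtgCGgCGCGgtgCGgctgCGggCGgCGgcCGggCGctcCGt
Kcnj10 chr1:172340960-172341259 (+): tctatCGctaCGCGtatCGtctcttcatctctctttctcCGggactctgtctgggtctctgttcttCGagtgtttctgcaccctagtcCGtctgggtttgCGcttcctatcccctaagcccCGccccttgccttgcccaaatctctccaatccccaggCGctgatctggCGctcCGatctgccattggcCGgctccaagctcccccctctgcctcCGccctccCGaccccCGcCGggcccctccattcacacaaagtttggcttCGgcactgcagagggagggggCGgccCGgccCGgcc
Kcnk1 chr8:125994852-125995151 (+): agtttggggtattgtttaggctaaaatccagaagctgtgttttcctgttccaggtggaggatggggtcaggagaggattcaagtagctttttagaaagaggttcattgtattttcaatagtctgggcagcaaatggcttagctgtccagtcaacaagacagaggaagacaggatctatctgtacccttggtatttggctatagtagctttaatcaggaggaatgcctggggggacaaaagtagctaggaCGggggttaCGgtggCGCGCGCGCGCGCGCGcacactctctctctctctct
The Kcna3 and Kcna2 windows held 37 and 31 CG, more than 94.4% and 89.4% of the 32851 promoters in the table. The Kcnj10 and Kcnk1 windows held 21 and 10, and the median was 7 for all promoters and 10 for the 72 promoters of family members. TATAAA, searched on both strands, was in 13.6% of all promoters and in 4 of the 72 (Kcnab1, Kcnj13, Kcnj16 and Kcnj9), which is 5.56%.

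Of the electrically silent subunits, which alter the channels of other families but form none alone, Kcng1 and Kcnv1 fell and Kcnf1 rose. Kcng1 (chromosome 2, 168260117 to 168281736, minus strand) had 8.87, 9.39 and 10.5 FPKM in Control_E15, 1.03, 0.864 and 0.604 FPKM in Control_P5 and 2.47, 0 and 1.85 FPKM in Control_12w. All E15 libraries were above all later ones, and the fall to P5 was -2.54 ± 0.12 (SE, adjusted p = 3.04e-06). Kcnv1 had 2.03, 2.78 and 3.56 FPKM in Control_E15 and at most 0.306 FPKM in the 6 later control libraries. Kcnf1 averaged 0.927 ± 0.367, 1.88 ± 0.348 and 2.59 ± 0.886 FPKM at the 3 ages.

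The Kcnh family was mostly lower at P5, where 4 of 6 genes tested fell and 1 rose. Kcnh3, a forebrain channel of the Elk type (chromosome 15, 99224861 to 99242817, plus strand), had 8.99, 9.91 and 9.80 FPKM in Control_E15, 0.481, 0.490 and 0.700 FPKM in Control_P5 and 0.625, 0 and 0 FPKM in Control_12w. It had the largest fall of the family to P5 (-2.77 ± 0.10, adjusted p = 8.86e-07), with no overlap, and passed the filter through E15 alone. Kcnh4 fell by 0.98 and Kcnh2, the pore of the cardiac rapid delayed rectifier, by 0.24, while Kcnh7 rose by 1.01. Kcnq3, a subunit of the M-current that restrains repetitive firing, averaged 18.4 ± 0.801, 9.76 ± 2.08 and 5.94 ± 2.01 FPKM and fell by 0.87 to P5. Kcnq5, a further M-current subunit, fell by 0.57.

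Auxiliary genes and those of the Kcnma, Kcnn, Kcnt and Kcnu families were divided. Kcnip3 had 14.0, 11.7 and 14.1 FPKM in Control_E15, 58.8, 59.7 and 50 FPKM in Control_P5 and 79.9, 115 and 82.3 FPKM in Control_12w, without overlap between ages (2.0 ± 0.10 to P5, adjusted p = 3.89e-06). Kcne1l, an X-linked relative of the minK subunit, had 7.04, 6.78 and 7.53 FPKM in Control_E15, 35.9, 31.8 and 29.7 FPKM in Control_P5 and 12.8, 18.0 and 30.6 FPKM in Control_12w (2.04 ± 0.09 to P5, adjusted p = 1.97e-06). Kcnmb4 rose by 0.67 and Kcnip4 by 0.68, whereas Kcnip1, Kcnab3 and Kcnrg fell by 0.53, 0.46 and 0.54. Kcnmb4 overlaps the antisense transcript Kcnmb4os2 and Kcnip1 overlaps Kcnmb1, so their reads may be shared. Of 7 Kcnma, Kcnn, Kcnt and Kcnu genes tested Kcnt2, a sodium-activated channel, and Kcnn2, a small-conductance calcium-activated channel, rose by 1.41 and 0.43, and Kcnn1 fell by 0.67.

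Genes that work with these channels or move potassium, 34 in a list of their own, were also tested. Of 31 tested 18 rose and 9 fell between E15 and P5. Among the rises was that of Atp1b2, a glial sodium pump subunit, at 2.78, and among the falls that of Dlg4, a scaffold of synapses, at -1.02. Markers of cell types moved as well. All 11 tested genes of the astrocyte list rose, with a summed level of 116 to 123 FPKM in Control_E15, 991 to 1189 FPKM in Control_P5 and 1143 to 1940 FPKM in Control_12w. All 9 oligodendrocyte precursor genes rose, while 8 of 12 newborn neuron genes fell and 3 rose, and 8 of 14 mature neuron genes fell and 4 rose. The part of these shifts in the potassium channel changes was not tested, and age and tissue cannot be told apart in this comparison.

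Between P5 and 12 weeks, both in the dentate gyrus, 8 of 56 tested potassium channel genes rose and 3 fell in control libraries, against 8.85% and 5.5% of all genes (14.3% together). The rises were those of Kcne4, Kcnk3, Kcnmb1, Kcnk13, Kcnt1, Kcnj10, Kcnj16 and Kcnip3 and the falls included those of Kcnj6 and Kcnab3. Kcne4, a subunit that inhibits several voltage-gated channels, had 9.17, 8.0 and 8.41 FPKM in Control_12w, against 0.606, 0.682 and 0.465 FPKM in Control_P5. The groups lay far apart (2.59 ± 0.20, SE, adjusted p = 0.000582). Kcnk3, an acid-sensitive tandem-pore channel, had 4.08, 1.51 and 3.95 FPKM in Control_12w, against 0.453, 0.411 and 0.269 FPKM in Control_P5 (1.53, adjusted p = 0.0288). Kcnmb1, the beta subunit of smooth muscle, had 1.89, 1.69 and 2.47 FPKM in Control_12w, against 0.247, 0.186 and 0.302 FPKM in Control_P5 (1.27, adjusted p = 0.0181). These 3, with Kcnk13, Kcnh8 and Kcnj12, passed the filter through the 12-week group alone, so that a difference was close to given for them.

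Of the genes that had risen to P5, Kcnj10, Kcnj16 and Kcnip3 were higher again at 12 weeks. Kcnj10 rose by 0.85 (adjusted p = 0.0498), Kcnj16 by 0.76 (adjusted p = 0.039) and Kcnip3 by 0.69 (adjusted p = 0.0366), on the values given above. Kcnj6 fell by 1.49 (adjusted p = 0.0147), with 0.317, 0 and 0 FPKM in Control_12w and 1.71, 2.60 and 1.98 FPKM in Control_P5, and it passed the filter through the P5 group alone. Kcnab3, a beta subunit of Kcna channels, fell by 0.88, with 1.53, 1.42 and 1.46 FPKM in Control_12w and 4.0, 3.42 and 3.23 FPKM in Control_P5. None of the 11 calls was made in every fit with 1 library left out, in part because a gene that passes the filter through 1 group is not tested without a library of it; Kcne4 and Kcnj6 were called in each such fit that tested them. Without Control_P5 replicate 1, 2 or 3 there was 1 rise and 0 falls each time, and without Control_12w replicate 1, 2 or 3 there were 4, 5 and 1 rises and 3, 5 and 5 falls.

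Markers of vessel cells, and of several other cell types, were higher at 12 weeks along with these genes. All 11 pericyte genes rose, with summed levels of 1127 to 2430 FPKM in Control_12w and 128 to 147 FPKM in Control_P5, and so did all 9 endothelial genes (289 to 510 FPKM in Control_12w and 5.55 to 9.36 FPKM in Control_P5). Of oligodendrocyte precursor genes 8 of 9 rose, with 1349 to 2085 FPKM in Control_12w and 623 to 793 FPKM in Control_P5. Of the genes tested, 7 of 9 myelin and 6 of 7 fibroblast genes rose, and all 11 microglia genes were higher, 2 past the threshold. The astrocyte list was mixed, with 4 rises and 4 falls among 12. Newborn neuron genes had 1 rise and 4 falls and neural stem cell genes 0 and 4. The part of these marker shifts in the potassium channel changes was not tested. Of 30 partner genes tested 8 rose and 2 fell: the secreted Kcna-associated protein gene Lgi1 (3.03) and the sulfonylurea receptor gene Abcc9 (2.89) rose most, and the pacemaker channel gene Hcn4 was among those that fell (-1.65). Abcc9 is also counted in the pericyte list.

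At E15, about a day after the last dose, none of 51 tested potassium channel genes passed the test for VPA against control by limma. Of all 12345 genes 0% rose and 0.0405% fell. At an unadjusted p under 0.05 there were 10 of 51, beside 10.5% of all genes. The 3 VPA libraries were all above the 3 controls for 11 genes and all below for 4, against 8.19% and 9.32% of all genes. The fold change was above 0 for 36 of 51 (47.4% of all genes), with a median log2 value of 0.07 in the family and -0.01 over all genes. All 12 tested genes of the Kcna to Kcnd families had a fold change above 0, with a median of 0.07 and a range from 0.00 to 0.50, as did all 3 silent subunits (median 0.52).

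Kcng1 had the largest of the separated differences, with 15.1, 16 and 14.7 FPKM in VPA_E15 libraries, against 8.87, 9.39 and 10.5 FPKM in Control_E15. Every VPA library was at least 4 FPKM above every control, but the difference missed the threshold over all genes (0.62 ± 0.08, SE, adjusted p = 0.171). Kcna3 had 10.1, 10.8 and 9.07 FPKM in VPA_E15, against 7.59, 7.28 and 5.53 FPKM in Control_E15 (0.50, adjusted p = 0.357). Kcnt1, a sodium-activated channel, had 2.12, 2.06 and 3.51 FPKM in VPA_E15, against 1.43, 1.03 and 1.45 FPKM in Control_E15 (0.61, adjusted p = 0.386). Kcnq3 had 24.4, 27.0 and 19.6 FPKM in VPA_E15, against 18.3, 17.7 and 19.3 FPKM in Control_E15, so that 1 exposed library was close to the highest control (0.34, adjusted p = 0.44). The other higher and separated genes were Kcnf1, Kcnh2, Kcnh7, Kcnma1, Kcnh5, Kcnip4 and Kcnd3. Lower and separated were Kcnj3 (-0.21), Kcnj11 (-0.20), Kcnk2 (-0.19) and Kcnk10. Kcnj11 had 27.0, 27.4 and 22.1 FPKM in VPA_E15, against 27.5, 29.1 and 31.3 FPKM in Control_E15. Its highest exposed library, at 27.43 FPKM, was almost level with the lowest control, at 27.50 FPKM.

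VPA_E15 replicate 3, the library with choroid plexus transcripts, set some values alone. Kcnj13, an inward rectifier known from choroid plexus epithelium, had 68.4 FPKM there, against 0.359 and 0.368 FPKM in the other VPA_E15 libraries and 0.209 to 1.23 FPKM in Control_E15. Kcnk1 had 13.9 FPKM in that library, against 3.81 and 3.06 FPKM in the others exposed and 3.53 to 4.8 FPKM in Control_E15, and Kcnh2 had 11.4 FPKM, against 7.61 and 7.11 FPKM and then 5.71 to 6.25 FPKM in Control_E15. The summed choroid plexus list reached 11220 FPKM there and 38.5 FPKM in the lowest VPA_E15 library, with 13.8 to 157 FPKM in Control_E15. Without replicate 3 the fold changes were 0.64 for Kcng1, 0.56 for Kcna3, 0.43 for Kcnt1, -0.10 for Kcnj11, -0.17 for Kcnj3 and -0.23 for Kcnk2. Summed GABAergic neuron markers were 354 to 463 FPKM in VPA_E15 and 218 to 377 FPKM in Control_E15. Their part in the channel values was not tested.

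At P5 the family leaned upward in exposed libraries without a gene passing the test. None of 49 tested genes passed by limma, while 0.9% of all 13328 genes rose and 1.34% fell (2.24% together), and 18 had an unadjusted p under 0.05, beside 24% of all genes. The VPA libraries were all above the controls for 16 genes and all below for 3, against 13.8% and 15.6% of all genes. The median log2 fold change was 0.17, and 0.00 over all genes, with 34 of 49 above 0 (49.1% of all genes). The auxiliary subunits were 9 of 10 above 0 with a median of 0.29, and 6 of the 10 were separated (Kcnip2, Kcnip4, Kcnip1, Kcnab2, Kcnmb4 and Kcne1l). Without VPA_P5 replicate 1, 4 members rose and 0 fell, while 2.07% and 2.05% of all genes did. Without Control_P5 replicate 3, 1 rose and 0 fell, beside 1.55% and 2.23% of all genes.

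Kcnip2, a calcium-binding subunit of Kcnd channels, had 7.43, 8.75 and 8.71 FPKM in VPA_P5, against 2.42, 4.95 and 5.62 FPKM in Control_P5 (0.86 ± 0.24, SE, adjusted p = 0.0966). The controls differed among themselves more than the exposed libraries did, and the value was 0.56 without Control_P5 replicate 1. Kcna1, an axonal delayed rectifier, had 5.45, 7.93 and 6.23 FPKM in VPA_P5, against 3.87, 3.94 and 4.21 FPKM in Control_P5 (0.58 ± 0.13, adjusted p = 0.0642). Kcnj5, a G-protein-gated channel subunit, had 1.37, 2.03 and 2.04 FPKM in VPA_P5, against 0.528, 0.692 and 1.05 FPKM in Control_P5 (0.68, adjusted p = 0.075). Of its controls only replicate 3 reached 1 FPKM. Kcnj5 thus entered the fit through the VPA libraries, and the filter favoured a higher value there. Kcnip2, Kcna1 and Kcnj5 were separated. So was the abundant member Kcnmb4, with 48.2, 48.4 and 46.9 FPKM in VPA_P5 and 38.9, 35.4 and 44.3 FPKM in Control_P5. Kcnk1 averaged 84.2 FPKM in VPA_P5 and 64.8 FPKM in Control_P5, and its groups overlapped at 70.2 FPKM in the lowest exposed library and 70.4 FPKM in the highest control.

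Of the genes separated at P5, 5 were separated in the same direction at E15, all higher in VPA libraries. These were 5 of the 42 members tested at both ages, with 0 lower at both, against 1.19% and 1.29% of all genes. They were Kcnf1, Kcnt1, Kcnip4, Kcnma1 and Kcnh2. Kcnt1 had 1.74, 2.32 and 2.01 FPKM in VPA_P5, against 1.09, 1.40 and 1.38 FPKM in Control_P5, beside the E15 values above. Kcnf1 had 1.5, 1.83 and 1.89 FPKM in VPA_E15 and 1.10, 1.18 and 0.505 FPKM in Control_E15, then 2.32, 3.54 and 3.26 FPKM in VPA_P5 and 1.92, 1.52 and 2.21 FPKM in Control_P5. Kcnma1, the pore of the large-conductance calcium-activated channel to which Kcnmb4 belongs, averaged 2.52 FPKM in VPA_E15 and 1.82 FPKM in Control_E15, then 2.83 FPKM in VPA_P5 and 2.06 FPKM in Control_P5, with a log2 fold change of 0.32 at each age. The Kcnh2 values at E15 rest in part on replicate 3, while its other exposed libraries were above the controls too. Other separated genes at P5 included Kcnj11, Kcnj9 and Kcnmb4os2.

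Lower at P5 were Kcna3, Kcnb2 and Kcnn1. Kcnb2 had 3.11, 2.92 and 3.12 FPKM in VPA_P5, against 4.34, 5.02 and 4.22 FPKM in Control_P5, and came nearest to the threshold of all members (-0.45 ± 0.09, SE, adjusted p = 0.0569). It passed in the fit without an intensity trend (adjusted p = 0.0408). Kcna3 had 1.53, 0.976 and 1.45 FPKM in VPA_P5, against 2.62, 3.14 and 2.0 FPKM in Control_P5 (-0.62 ± 0.16, adjusted p = 0.0823). Kcnn1, a small-conductance calcium-activated channel, had -0.21. Summed mature neuron markers were 716 to 800 FPKM in VPA_P5 and 605 to 693 FPKM in Control_P5, pericyte markers 189 to 336 FPKM in VPA_P5 and 128 to 147 FPKM in Control_P5, and immediate early genes 502 to 698 FPKM in VPA_P5 and 1582 to 1862 FPKM in Control_P5. All 12 neural stem cell markers had a negative fold change, 3 of them past the threshold. Their sums were 2291 to 2393 FPKM in VPA_P5 and 2423 to 2783 FPKM in Control_P5. The part of these marker shifts in the channel values was not tested. Among partner genes 0 of 30 passed, the largest separated differences being those of Abcc9 (1.07), which is also in the pericyte list, and the Kcnd-associated Dpp6 (0.62).

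**Figure D3:**
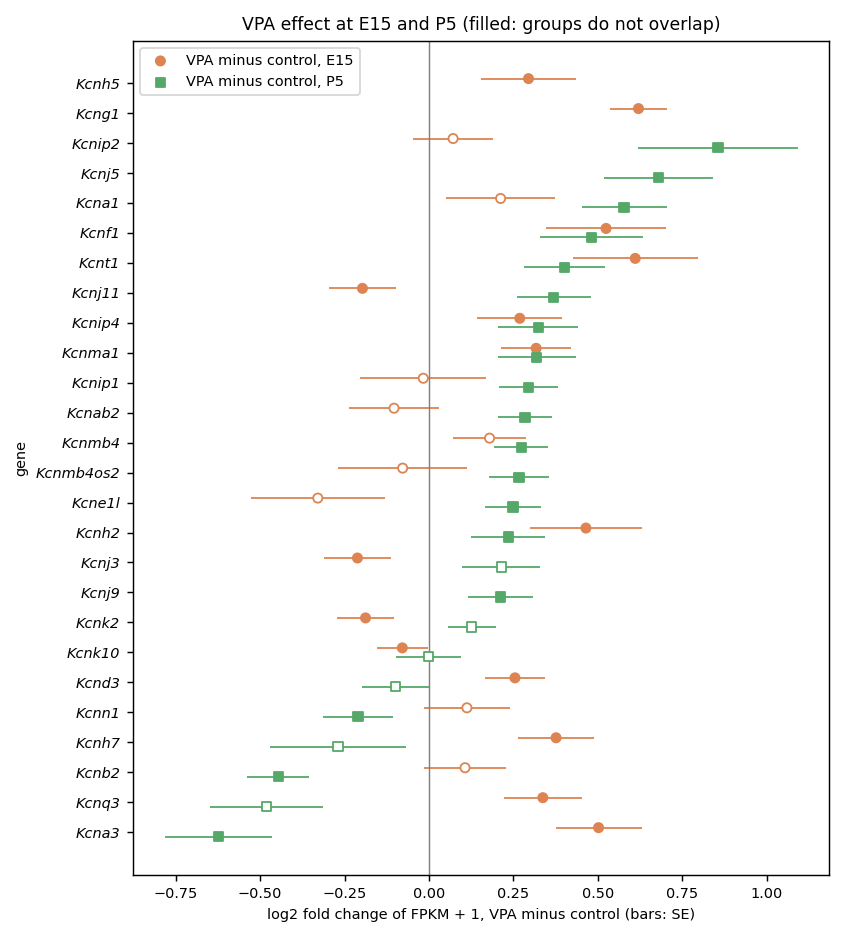
Log2 fold change of FPKM + 1, VPA minus control, at E15 (circles) and P5 (squares) for described genes whose groups did not overlap at one or both ages; bars are SE, filled symbols mark groups without overlap, and a missing symbol means that the gene was not tested at that age. Most P5 squares lie right of 0, while Kcna3 and Kcnj11 lie on opposite sides of 0 at the 2 ages.

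The VPA difference itself changed between E15 and P5 for Kcna3 and Kcng1. In 1 fit of both ages the interaction passed for 2 of 58 tested genes, both in the negative direction, while 0.372% of all genes passed in the positive and 0.772% in the negative direction (1.14% together). For Kcna3 the interaction was -1.13 ± 0.21 (SE, adjusted p = 0.036), since the exposed libraries were all above the controls at E15 and all below them at P5. For Kcng1 it was -0.71 ± 0.14 (adjusted p = 0.0429). Kcng1 had 0.736, 0.707 and 0.709 FPKM in VPA_P5, against 1.03, 0.864 and 0.604 FPKM in Control_P5, which overlap, so that the separation at E15 was not seen at the low level of P5. Over both ages the groups were separated in opposite directions for 1 gene with a positive and 2 with a negative difference, against 1.03% and 1.71% of all genes.

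Both calls depended on the block and on single libraries. With the replicate number as a block the adjusted p was 0.0573 for Kcna3 and 0.0956 for Kcng1, so that 0 genes passed. Leaving out 1 library at a time gave 0 to 4 negative and 0 to 2 positive calls: 4 without Control_E15 replicate 1 (2.12% of all genes), 3 without Control_P5 replicate 3, 2 without VPA_E15 replicate 3, 1 without VPA_P5 replicate 1 (with 2 positive) and 0 without any of the other 8. Kcnh5, an ether-a-go-go channel, and Kcnj11 were also separated in opposite directions at the 2 ages but did not pass. Kcnh5 had 1.88, 2.19 and 1.84 FPKM in VPA_E15 and 1.80, 1.14 and 1.37 FPKM in Control_E15, then 0.179, 0.606 and 0.480 FPKM in VPA_P5 and 1.26, 1.14 and 0.828 FPKM in Control_P5 (-0.85, adjusted p = 0.077). Kcnj11 had 14.4, 19.5 and 18.7 FPKM in VPA_P5, against 13.6, 13.4 and 12.8 FPKM in Control_P5 (0.57, adjusted p = 0.111). The Kcnj11 interaction was 0.47 without VPA_E15 replicate 3.

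**Figure D4:**
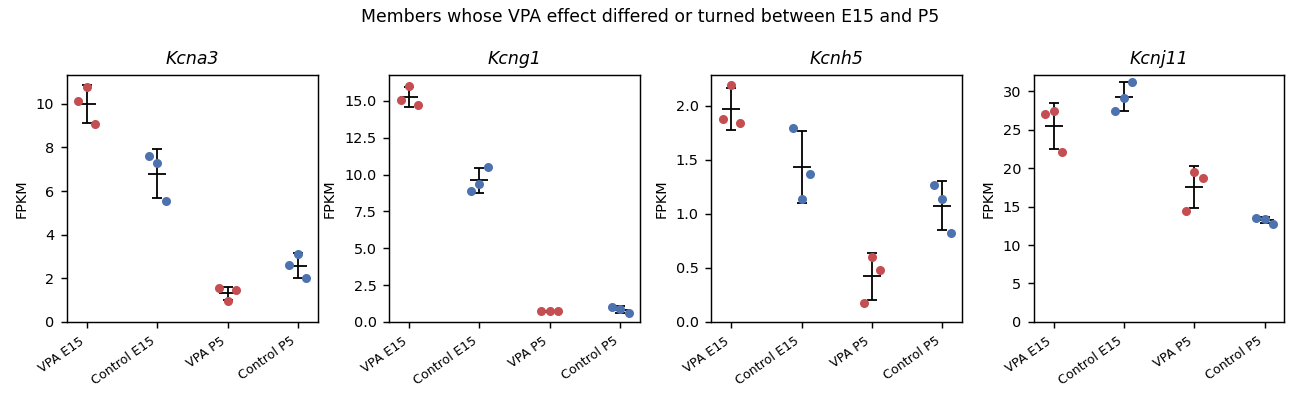
FPKM of 4 genes in VPA and control libraries at E15 and P5; points are libraries and black marks are mean ± SD (n = 3). Kcna3 and Kcnh5 are higher in VPA libraries at E15 and lower at P5, Kcnj11 is the reverse, and Kcng1 differs at E15 but is at most 1.03 FPKM in every P5 library.

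At 12 weeks the comparisons of exposure and of running share libraries, so that their values are given side by side and are not independent. None of 59 tested genes passed by limma in any of the 3, and neither did any of the 13847 genes tested (0%). At an unadjusted p under 0.05 there were 13 for VPA_Run_12w against VPA_12w, 3 for VPA_Run_12w against Control_12w and 3 for VPA_12w against Control_12w, beside 11.3%, 7.76% and 6.39% of all genes. The median log2 fold changes in the same order were -0.42, -0.19 and 0.15, against -0.05, -0.07 and -0.01 over all genes. Fold changes above 0 numbered 18, 21 and 34 of 59, beside 45.8%, 44.1% and 49.3% of all genes. A fit of all 21 libraries pools the 12-week spread with the smaller spread of the younger ages. For running it called 3 rises and 11 falls of 68 members, beside 4.84% and 6.74% of all genes. It called 0 rises and 2 falls for running against control (2.48% and 3.57% of all genes) and 2 rises and 0 falls for exposure (1.93% and 1.71%).

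VPA_Run_12w libraries were all below VPA_12w libraries for 16 genes and all above for 2, against 8.48% and 6.98% of all genes. They included Kcna1, Kcna6, Kcnc2, Kcnd2 and Kcnd3 of the classical voltage-gated genes, 3 of 5 Kcnk genes (Kcnk1, Kcnk2 and Kcnk13), 3 of 7 Kcnj genes (Kcnj3, Kcnj9 and Kcnj16), and Kcnh5, Kcnmb4, Kcnn1 and Kcnt2. Kcnk1 had 26.7, 19.9 and 17.9 FPKM in VPA_Run_12w, 65.0, 38.4 and 50.6 FPKM in VPA_12w and 46.1, 35.2 and 59.8 FPKM in Control_12w. The running group was below all other 12-week libraries (-1.21 ± 0.27 against VPA_12w, SE, adjusted p = 0.155, and -1.08 ± 0.27 against Control_12w, adjusted p = 0.612). Kcnd2 had 8.93, 4.17 and 9.69 FPKM in VPA_Run_12w, 13.6, 19.4 and 21.5 FPKM in VPA_12w and 6.91, 8.09 and 7.07 FPKM in Control_12w. Here the exposed libraries without running stood above both other groups (1.18 ± 0.37 against Control_12w, adjusted p = 0.577). Dpp6, the auxiliary protein of Kcnd channels, followed with 29.9, 21.3 and 44.4 FPKM in VPA_Run_12w, 75.2, 66.7 and 90.1 FPKM in VPA_12w and 43.7, 61.4 and 39.3 FPKM in Control_12w.

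Kcnj16 was placed likewise, with 13.9, 11 and 13.9 FPKM in VPA_Run_12w, 17.4, 18.0 and 21.9 FPKM in VPA_12w and 12.7, 10.7 and 10.1 FPKM in Control_12w. Kcna1 had 2.21, 3.20 and 2.46 FPKM in VPA_Run_12w, 4.67, 3.38 and 4.01 FPKM in VPA_12w and 4.09, 3.1 and 5.53 FPKM in Control_12w. Its groups with and without running were apart by less than 0.2 FPKM (-0.47, adjusted p = 0.694). Kcnk2 had 26.8, 20.9 and 19.7 FPKM in VPA_Run_12w, 28.1, 33.2 and 34.0 FPKM in VPA_12w and 21.2, 28.7 and 22.2 FPKM in Control_12w, so that only running and exposed libraries were separated. Kcnh5 was listed at 0 in all 3 VPA_Run_12w libraries, against 3.57, 1.66 and 1.55 FPKM in VPA_12w and 0.841, 2.85 and 2.10 FPKM in Control_12w. Kcnn1 had 1.45, 2.06 and 0 FPKM in VPA_Run_12w and 2.64, 6.10 and 8.61 FPKM in VPA_12w. Kcnc2 and Kcnh5 reached 1 FPKM in no VPA_Run_12w library and entered the fit through the other groups, so that a difference was close to given for them. Of the 16 genes 4 were listed at 0 in VPA_Run_12w replicate 3 (Kcnc2, Kcnh5, Kcnk13 and Kcnn1), and 9 had a VPA_12w mean of at least 5 FPKM. Without that replicate the median was -0.45 in the family and 0.00 over all genes, Kcnk1 was at -1.09 and Kcnn1 at -1.2.

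Higher with running were Kcne1l and Kcnn3, a small-conductance calcium-activated channel. Kcne1l had 20.6, 30.9 and 20.4 FPKM in VPA_Run_12w, 5.52, 13.1 and 16.6 FPKM in VPA_12w and 12.8, 18.0 and 30.6 FPKM in Control_12w (1.06 against VPA_12w, adjusted p = 0.394). Kcnn3 had 2.98, 3.69 and 3.31 FPKM in VPA_Run_12w, 1.91, 0.416 and 2.10 FPKM in VPA_12w and 2.51, 3.42 and 2.47 FPKM in Control_12w (0.88, adjusted p = 0.506). For both, the running libraries overlapped the controls. The Kcne1l value was 0.64 without VPA_12w replicate 1 and the Kcnn3 value 0.52 without VPA_12w replicate 2. Against Control_12w the running group was wholly lower for 6 genes and wholly higher for 1, Kcnn2, against 7.24% and 5.83% of all genes. Without VPA_Run_12w replicate 3 the median against Control_12w was -0.07 in the family and -0.01 over all genes. The 6 were Kcnh5, Kcnf1, Kcna3, Kcnk13, Kcnk1 and Kcnab2. Kcnh5 and Kcna3 were listed at 0 in every VPA_Run_12w library and entered the fit through the other groups.

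VPA_12w libraries were all above Control_12w for 7 genes and all below for 4, against 7.83% and 7.63% of all genes. The higher ones were Kcnip4, Kcnab3, Kcnd2, Kcnc4, Kcna4, Kcnj16 and Kcna2 and the lower ones Kcnmb4os2, Kcnf1, Kcnn3 and Kcnh7. Kcna4 reached 1 FPKM in no Control_12w library and Kcnmb4os2 in no VPA_12w library. Both entered the fit through the other groups, so that a difference was close to given for them. Kcnip4, a further Kcnd-binding subunit, had 3.28, 3.23 and 5.81 FPKM in VPA_12w and 1.78, 0 and 1.61 FPKM in Control_12w. Kcnab3 had 6.98, 5.73 and 2.46 FPKM in VPA_12w and 1.53, 1.42 and 1.46 FPKM in Control_12w (1.21, adjusted p = 0.791). Kcnf1 had 0.940, 0.0416 and 1.45 FPKM in VPA_12w and 2.06, 3.62 and 2.10 FPKM in Control_12w (-1.05, adjusted p = 0.789, and -0.69 without VPA_12w replicate 2). Kcnip3, the most abundant member, had 121, 115 and 71.3 FPKM in VPA_Run_12w, 99.6, 225 and 266 FPKM in VPA_12w and 79.9, 115 and 82.3 FPKM in Control_12w, and the exposed group overlapped both others.

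**Figure D5:**
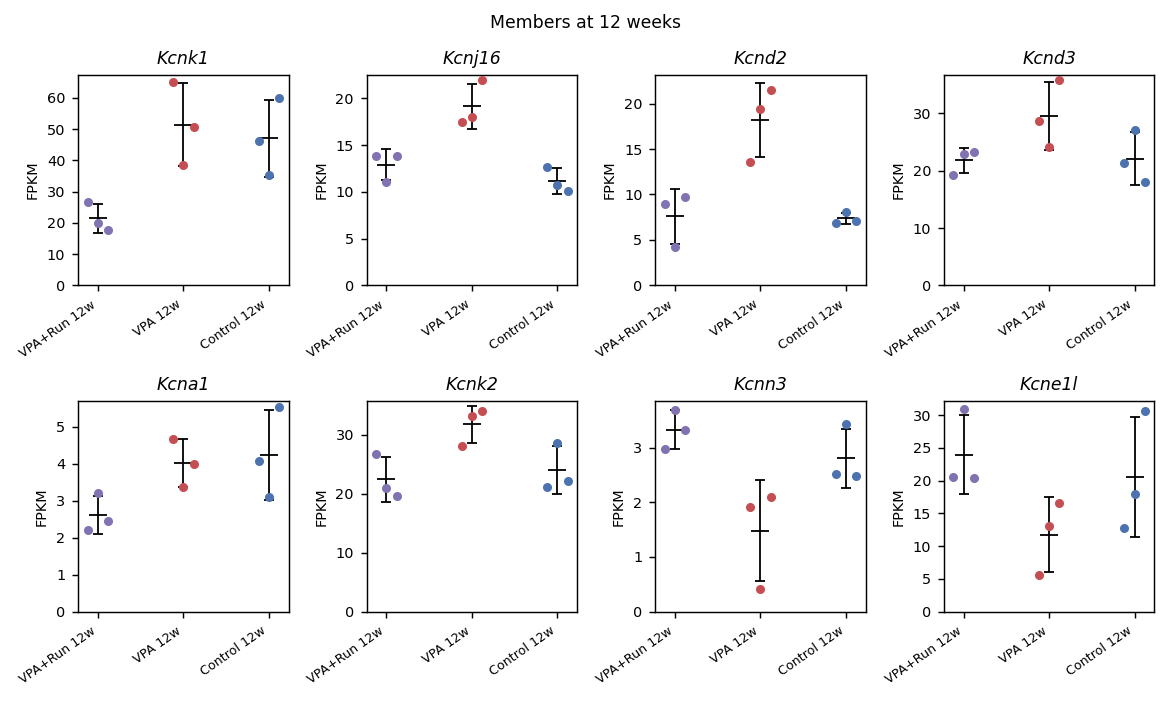
FPKM of 8 genes at 12 weeks in VPA plus running, VPA and control libraries; points are libraries and black marks are mean ± SD (n = 3). The running libraries lie below the VPA libraries for the first 6 genes and above them for Kcnn3 and Kcne1l, and for Kcnj16 and Kcnd2 the control libraries also lie below the VPA libraries.

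Markers of other cells differed between the 12-week groups. All 9 oligodendrocyte precursor genes had a negative fold change for VPA_Run_12w against VPA_12w, with summed levels of 1207 to 1599 FPKM in VPA_Run_12w, 2401 to 3459 FPKM in VPA_12w and 1349 to 2085 FPKM in Control_12w, though 0 passed the test. Astrocyte markers were summed at 1619 to 2122 FPKM in VPA_Run_12w, 993 to 1212 FPKM in VPA_12w and 1143 to 1940 FPKM in Control_12w. Newborn neuron markers were summed at 2256 to 3022 FPKM in VPA_Run_12w, 1949 to 2375 FPKM in VPA_12w and 2937 to 3349 FPKM in Control_12w, so that VPA_12w lay below Control_12w. Endothelial markers did likewise, at 172 to 278 FPKM in VPA_Run_12w, 94.2 to 268 FPKM in VPA_12w and 289 to 510 FPKM in Control_12w. Fibroblast markers were summed at 171 to 214 FPKM in VPA_Run_12w, 304 to 450 FPKM in VPA_12w and 199 to 266 FPKM in Control_12w. Most of that sum was Pdgfra, also an oligodendrocyte precursor gene, with 251, 318 and 424 FPKM in VPA_12w and 150, 188 and 124 FPKM in Control_12w. By gene, 8 of the 9 fibroblast genes had a negative fold change for VPA_12w against Control_12w and 1 a positive one. Immediate early genes were summed at 1438 to 2009 FPKM in VPA_Run_12w, 2717 to 3016 FPKM in VPA_12w and 1913 to 2612 FPKM in Control_12w. Their part in the potassium channel values was not tested. Of 30 partner genes 0 passed in any of the 3 comparisons. Cntnap2, which clusters Kcna channels at the axon, was separated in all 3, with 12.5, 18.5 and 20.4 FPKM in VPA_Run_12w, 9.42, 8.88 and 7.74 FPKM in VPA_12w and 22.3, 29.6 and 22.3 FPKM in Control_12w. The change of the VPA difference between P5 and 12 weeks passed for 0 of 60 potassium channel genes, with 7 at an unadjusted p under 0.05, against 0.268% of all genes that rose, 0.261% that fell (0.528% together) and 13.4%. Separated in opposite directions at those ages were 0 genes with a positive and 2 with a negative difference, Kcnf1 and Kcnmb4os2, against 1.13% and 1.49% of all genes.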

How the data were processed

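RNA with poly(A) tails from sorted Nestin-EGFP cells was sequenced on an Illumina instrument, per the labels' protocols. The authors deposited FPKM values per gene for each of the 21 libraries; the 12-week file headers name the unit, and at E15 and P5 it was inferred from the values. TopHat, Bowtie2, Cufflinks, Cuffdiff and mm10 are named in the submitters' processing notes, with versions not given in the sources used here. Counts, depth and strand were not used here, and FPKM values can shift together when a few abundant genes change.

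The fits used limma 3.58.1 in R 4.3.3, with an intensity trend, on log2(FPKM + 1), which understates the fold change of low genes. A gene entered a fit when 3 or more of its libraries reached 1 FPKM. Each of 9 comparisons was fitted on its own groups (all 12-week groups share 1 fit), two-sided, with Benjamini-Hochberg adjustment over all tested genes at 0.05. Errors of fold changes are SE. The fit was tested on simulated data. The members and gene lists were chosen with earlier results of these data known. Genes named with a test were at most 12 per direction past the threshold, by size of change, or, where fewer than 3 passed, up to 3 of the largest differences without overlap of the groups and with a higher mean of at least 2 FPKM; genes outside this rule were chosen after their values were seen. Some genes counted here are not reported by name. Gene positions are from GENCODE (mm10) and promoters from RefSeq.

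The labels do not say whether replicate numbers pair libraries. Same-numbered VPA and control libraries had weakly correlated deviations at E15 (0.115 to 0.228), and correlations were lower elsewhere (-0.121 to 0.0994). Libraries with different numbers were not compared, so pairing is not settled by these values. Each fit was repeated with all 21 libraries together, with a replicate block, without the trend, after median-of-ratios scaling, with 0.1 added before the logarithm, with the limit on low values set to 5 FPKM or removed, and with each library left out in turn.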

Additional observations from a re-analysis of the deposited data

Results flagged for a closer look

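The VPA difference changed between E15 and P5 past the threshold (limma, Benjamini-Hochberg) for Kcna3 (interaction -1.126, adjusted p = 0.036), for Kcng1 (-0.7082, adjusted p = 0.0429) and, among partner genes, for the sulfonylurea receptor gene Abcc9 (1.323, adjusted p = 0.0494). The Abcc9 call was lost with the replicate block (adjusted p = 0.0881) and without any 1 library other than Control_E15 replicate 1 or VPA_P5 replicate 3 (adjusted p up to 0.139). Kcna3 was higher in every VPA library than in every control at E15 and lower at P5. Kcnh5 (-0.848, adjusted p = 0.077) and Kcnj11 (0.5661, adjusted p = 0.111) had groups separated in opposite directions at those ages, and the test of the difference missed the threshold. The Kcnj11 value was 0.4687 without VPA_E15 replicate 3.

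Between P5 and 12 weeks the VPA difference changed past the threshold for Abcc9 (-1.989, adjusted p = 0.0487) and Cntnap2 (-1.734, adjusted p = 0.00572). The Abcc9 call was lost with the block (adjusted p = 0.129) and without any 1 library other than VPA_P5 replicate 3, Control_12w replicate 1 or VPA_12w replicate 2 (adjusted p up to 0.176). The Cntnap2 call held with the block and without any 1 library (adjusted p up to 0.0407). Cntnap2 had 9.42, 8.88 and 7.74 FPKM in VPA_12w and 22.3, 29.6 and 22.3 FPKM in Control_12w, then 23.9, 31.4 and 27.3 FPKM in VPA_P5 and 20.6, 21 and 23.3 FPKM in Control_P5. Kcnf1 (-1.531, adjusted p = 0.19) and Kcnmb4os2 (-1.604, adjusted p = 0.173) were separated in opposite directions at P5 and 12 weeks without passing. Pericyte markers, a list that holds Abcc9 itself, were higher in VPA_P5 than in Control_P5. They were summed at 836 to 1181 FPKM in VPA_12w and 1127 to 2430 FPKM in Control_12w. The part of pericyte cells in the Abcc9 values was not tested. Groups of 3 libraries were not examined for single outlying values.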

How the results depend on the processing

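Numbers of potassium channel genes called moved with the setting. Between E15 and P5, 24 rises and 19 falls of 55 members tested became 15 and 11 of 28 with a filter at 5 FPKM. Over all genes that filter gave 36.5% rises and 22.9% falls, against 39.9% and 21% in the main fit. With all 21 libraries in the fit there were 15 and 9 of 68 members, beside 14.4% and 6.33% of all genes. Between P5 and 12 weeks, 8 rises and 3 falls of 56 members tested became 5 and 5 of 68 with no filter (5.78% and 5.79% of all genes). There were 3 and 1 of 23 with a filter at 5 FPKM (8.7% and 5.78%) and 3 and 1 of 56 with the replicate block (5.73% and 2.32%). Of 58 members tested, the 2 interactions between E15 and P5 became 1 with a pseudocount of 0.1 and 1 with median-of-ratios scaling. With a filter at 5 FPKM there was 1 of 33, and there were 0 with no filter, with all 21 libraries or with the replicate block. VPA at P5 gave 1 fall with no trend. With all 21 libraries, VPA at 12 weeks gave 2 rises, running 3 rises and 11 falls, and running against control 2 falls. With 1 library left out, the ranges were 18 to 24 rises and 11 to 17 falls (E15 to P5), 1 to 5 and 0 to 5 (P5 to 12 weeks), 0 to 2 positive and 0 to 4 negative interactions (E15 and P5), 0 to 2 positive (2 without VPA_12w replicate 1) and 0 negative (P5 and 12 weeks), and 0 to 4 rises and 0 falls for VPA at P5. The number of members tested also moved with the setting, so these counts are not shares of the same set. Other causes of these shifts were not tested. For VPA at E15 no potassium channel gene was called with or without the replicate block, so it had no call to remove there. Over all genes 5 falls at E15 became 4 with the block. Under these settings no direction reversed for genes picked by the naming rule or for Abcc8, each in the comparison it was picked for. Other genes named here were not checked in this way. Depth was unknown, and zeros at 12 weeks limit what low genes can show.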
